A study of Mesocricetus auratus with 24 samples.

Results

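Alpl (ENSMAUG00000008803) is 1 of the 22283 genes in the count table and encodes tissue-nonspecific alkaline phosphatase. The study listed 18 genes of the canonical metabolic pathway that differed in expression between the 2 high-fat groups in these same livers. Alpl was chosen as the gene of that list whose HFD-T070 5% mean lay closest to the ND mean. Its level in the 3 groups was therefore used in the choice, and the group means and fold changes of Alpl below are a description with no test. The libraries came from livers of male golden Syrian hamsters labelled wild type, 8 weeks old when feeding began, with 8 hamsters per group and 1 library per hamster. The ND group received a normal diet. The HFD group received a high-fat diet of mainly hydrogenated coconut oil with added fructose and cholesterol, and the HFD-T070 5% group received the same high-fat diet with 5% Totum-070, which combines extracts of olive leaf, artichoke leaf, chrysanthellum, goji fruit and black pepper. Feeding lasted 12 weeks by the methods and 6 weeks by the library labels.

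Tissue-nonspecific alkaline phosphatase is a glycolipid-anchored enzyme on the outer face of the cell membrane. It removes phosphate groups from substrates such as inorganic pyrophosphate, pyridoxal phosphate and bacterial lipopolysaccharide. It is best known from bone, where hydrolysis of pyrophosphate permits mineralization. In the liver it is found on the bile canalicular membrane of hepatocytes and in bile duct cells, and serum alkaline phosphatase is a clinical marker of impaired bile flow. Neutrophils carry the enzyme as well.

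Total counts per library ranged from 10789142 to 20740364, and the smallest total was that of HFD replicate 7. One library, labelled HFD replicate 1, often had values unlike those of its group at the listed genes. At 13 of the other 17 listed genes its value was inside the ND range, and at 16 of them it fell below or above all 7 remaining HFD libraries. The same counts were not made over all genes tested, so they are not read as a trait of the list or of the whole library. Counts of listed genes called, correlations within groups and the fold changes of Alpl that rest on HFD replicate 1 are given with and without it. Fold changes of the other listed genes are given only with it. Genes carry Ensembl identifiers in the counts, and the only symbols at hand were those of the listed genes, so the liver identity of the samples was not checked against marker genes.

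Alpl was counted sparsely in ND livers. The ND libraries, replicates 1 to 8 in order, held 4, 5, 5, 5, 2, 2, 7 and 1 reads of Alpl. On the scale of CPM (counts divided by library size after TMM normalization, as CPM of edgeR), the lowest ND library was at 0.0579, the median at 0.300 and the highest at 0.417 CPM. The ND mean was 0.254 ± 0.133 CPM (SD, n = 8). In the HFD group, the same order of replicates held 6, 19, 39, 57, 42, 50, 21 and 36 reads. The lowest HFD library was at 0.418, the median at 1.92 and the highest at 2.57 CPM, with a mean of 1.73 ± 0.700 CPM (SD, n = 8). Alpl was thus high in most HFD livers and low in 1 of them. That library was HFD replicate 1, at 0.418 CPM beside 0.417 CPM in ND replicate 7. The other HFD libraries began at 1.01 CPM in replicate 2. The HFD-T070 5% libraries held 10, 7, 9, 8, 12, 8, 2 and 4 reads, with the lowest at 0.102, the median at 0.451 and the highest at 0.572 CPM. Their mean was 0.406 ± 0.166 CPM (SD, n = 8). Every HFD-T070 5% library lay below the 7 HFD libraries other than replicate 1, and 3 of them lay within the ND range. In liver tissue, fewer cells that express Alpl and less Alpl RNA per cell cannot be told apart.

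**Figure D1:**
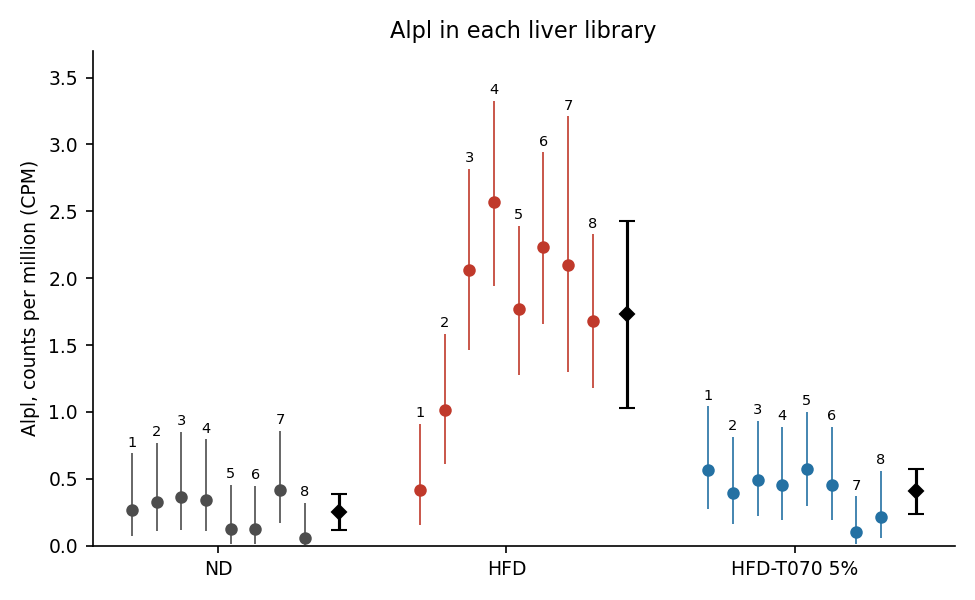
Alpl in each of the 24 libraries, in CPM after TMM normalization, with circles for libraries numbered by replicate, thin bars for the exact 95% Poisson interval of the count, and diamonds with bars for the group mean and SD. The HFD libraries other than replicate 1 sit between 1.01 and 2.57 CPM, and the highest HFD-T070 5% library is at 0.572 CPM.

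The group levels stood in the order ND, HFD-T070 5%, HFD. The HFD-T070 5% and ND means, neighbours in that order, differed by 0.152 CPM, less than the SD of the HFD-T070 5% libraries (0.166) and more than that of the ND libraries (0.133). Summed over each group, 31 reads in ND gave 0.249 CPM (exact 95% Poisson interval 0.169 to 0.353) and 60 reads in HFD-T070 5% gave 0.405 CPM (0.309 to 0.522). These 2 intervals overlapped, which does not test the difference between the groups. The 270 reads of the HFD group gave 1.78 CPM (1.57 to 2.00), above both. These intervals cover counting error only and not the spread between hamsters.

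Counting error made up most of the spread in the groups with low Alpl. With the totals of the ND libraries, counting alone gives an SD of 0.127 CPM around their pooled level, and the observed SD was 1.05 times that value. For HFD-T070 5% the ratio was 1.12. In the HFD group the observed SD was 2.20 times the counting SD, and without HFD replicate 1 it was 1.52 times. The spread among ND livers and among HFD-T070 5% livers was thus close to what counting gives at this depth, and that among HFD livers was larger.

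In the fit of edgeR over all 24 libraries, the log2 fold change of Alpl in HFD compared with ND was 2.76 (standard error 0.36), a 6.79-fold higher level. HFD-T070 5% compared with HFD gave −2.08 (standard error 0.32), and HFD-T070 5% compared with ND gave 0.68 (standard error 0.41). Of the 13134 genes tested, 11 had a larger absolute log2 fold change than Alpl in HFD-T070 5% compared with HFD, 248 did in HFD compared with ND and 2374 did in HFD-T070 5% compared with ND. The median absolute log2 fold change over all genes tested was 0.14, 0.31 and 0.26 in these comparisons. Alpl entered the fit mainly through the HFD group. The filter asked for 0.561 CPM in at least 8 libraries, and 7 HFD libraries, 2 HFD-T070 5% libraries and no ND library reached it, so a gene that passed in this way had to be higher with the HFD. Without HFD replicate 1, the log2 fold change of HFD-T070 5% compared with HFD was −2.23 and that of HFD compared with ND was 2.93.

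**Figure D2:**
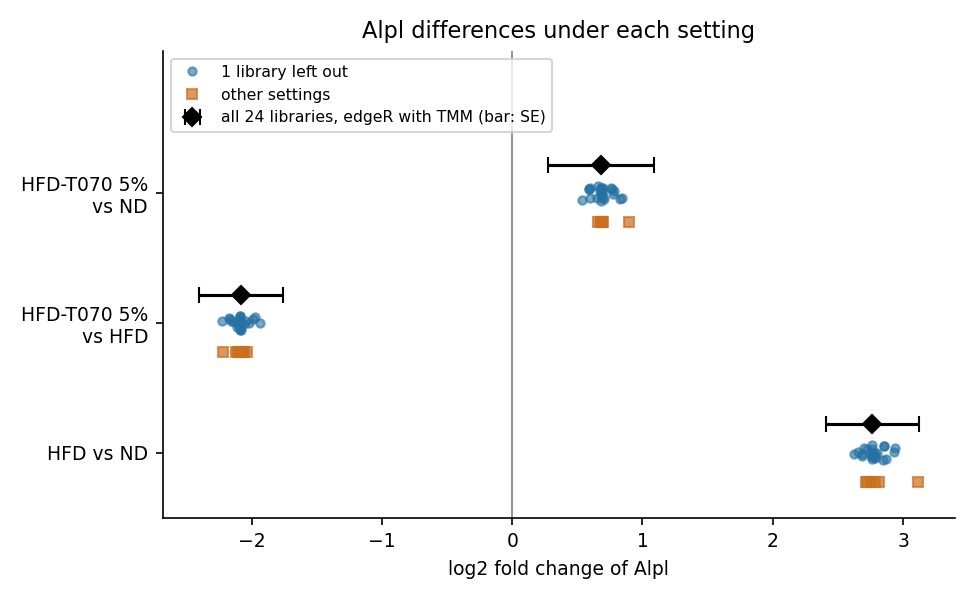
Log2 fold change of Alpl in each comparison (horizontal axis), with a diamond and SE bar for the edgeR fit of all 24 libraries, circles for fits with 1 library left out and squares for other normalizations, tests and filters. No point crosses 0, and the values with a library left out run from 2.63 to 2.94 for HFD compared with ND, from −2.23 to −1.93 for HFD-T070 5% compared with HFD and from 0.54 to 0.85 for HFD-T070 5% compared with ND.

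The ranges of the HFD and ND groups did not overlap at Alpl after TMM scaling, which rested on the small gap between HFD replicate 1 and ND replicate 7. In read counts these 2 libraries overlapped, with 6 and 7 reads. Ranges that do not overlap between these groups were found at 3.82% of genes tested. The HFD and HFD-T070 5% ranges overlapped through HFD replicate 1, and ranges that do not overlap between them were found at 0.274% of genes tested. With that library set aside, a choice made after the data were seen, Alpl was higher in each of the 7 HFD libraries than in any ND or HFD-T070 5% library, which held at 0.784% of all genes tested. The 7 HFD libraries lay above every ND library at 13.1% of genes tested and, for the listed genes other than Alpl, at 11 of 17. Among the other 17 listed genes, the 7 HFD libraries lay above every HFD-T070 5% library at 3, namely Asns, Mthfd2 and ENSMAUG00000000598, whereas 1.02% of genes tested did so. The list was chosen for this comparison on these libraries, so nothing is read from that count.

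How close the HFD-T070 5% level of Alpl came to ND depended on the scale. With mean log2 CPM set to 0 for ND and to 1 for HFD, the HFD-T070 5% mean of Alpl was at 0.22, and single HFD-T070 5% libraries lay from −0.29 in replicate 7 to 0.44 in replicate 5. On this scale Alpl was the closest to ND of the 18 listed genes, and Mboat2 (0.304) and Mthfd2 (0.405) came next. HFD replicate 1 lay at 0.28 on the same scale, and HFD replicate 2 at 0.75. By absolute log2 fold change between HFD-T070 5% and ND, Alpl came at place 5. The 4 genes with a smaller difference included Mboat2, a lysophospholipid acyltransferase (0.56), Mthfd2, a mitochondrial enzyme of folate metabolism (0.65), and Acss1 (0.66). By the difference in CPM, which grows with a gene's level and length, Mboat2 was closest at 0.143 CPM.

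The other 17 listed genes gave a background for Alpl in the comparisons with ND. Of these, 12 rose and 1 fell in HFD compared with ND (quasi-likelihood test of edgeR, called at an adjusted p below 0.05), where 53.3% of all genes tested passed, 27.2% higher and 26.1% lower. The gene that fell over all libraries was Sqle, which oxidizes squalene in cholesterol synthesis (log2 fold change −1.53, standard error 0.28, adjusted p = 8.39e-05). Acly and Lipg did not pass (same test, adjusted p = 0.216 and 0.105), and HFD replicate 1 lay above all other libraries at both. For Acly it was at 3108 CPM, with the other HFD libraries at 33.4 to 72.3 and ND at 164 to 2706 CPM. Without HFD replicate 1, 15 of the 17 passed in HFD compared with ND and 15 in HFD-T070 5% compared with ND. In HFD-T070 5% compared with ND over all libraries, 10 of the 17 rose and 4 fell, where 43.1% of genes tested passed, 22.2% higher and 20.9% lower. The 4 genes that fell in HFD-T070 5% compared with ND were Sqle, Acly, Lipg and ENSMAUG00000000598. The genes that rose in both comparisons with ND remained above ND in HFD-T070 5% by values from 0.66 for Acss1, a mitochondrial acetyl-CoA synthetase, to 3.21 for Bst1, an ADP-ribosyl cyclase, with Atp6v0d2 higher still but almost uncounted in ND livers. Mboat2 and Mthfd2, which rose with HFD, did not pass in HFD-T070 5% compared with ND (log2 fold change 0.56, standard error 0.49, adjusted p = 0.36 in edgeR, and 0.65, standard error 0.29, adjusted p = 0.0668). The study chose these genes on the same libraries, so their counts are not independent evidence of a direction, and both comparisons share the ND libraries. In HFD-T070 5% compared with HFD, on which the list was chosen, 3.89% of genes tested passed, 1.42% higher and 2.47% lower, and no count of listed genes is given.

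**Figure D3:**
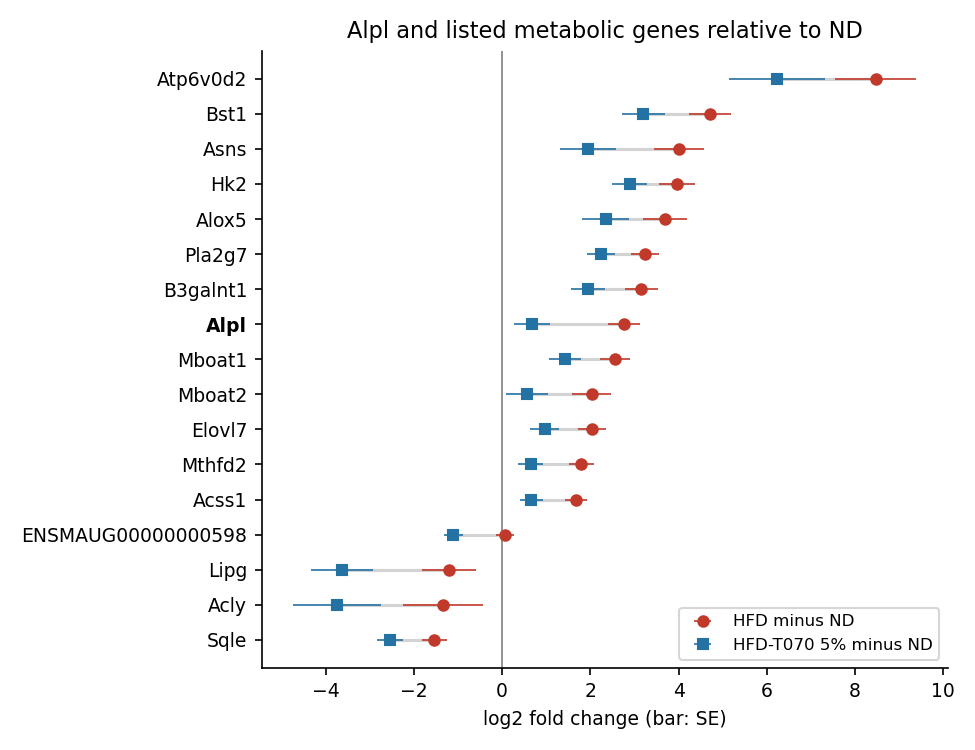
Log2 fold change against ND of Alpl and the other listed genes named here, with circles for HFD, squares for HFD-T070 5% and bars for the SE. Alpl moves from 2.76 in HFD to 0.68 in HFD-T070 5%, Acly, Lipg and Sqle lie below 0 in both, and the values of Atp6v0d2 are set by its near-zero ND level. The HFD values include HFD replicate 1, which lay above the other HFD libraries at Acly, Lipg and Sqle and below them at 12 of the 17 genes. With ND at 0 and HFD at 1 in log2 CPM, Acly in HFD-T070 5% was at 1.04, and at 0.85 without that library. Acly in HFD-T070 5% was then nearer to ND than HFD was, whereas Lipg and Sqle stayed beyond HFD at 1.30 and 1.43.

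The variation of Alpl among livers of one group was set against the other 17 listed genes. Alpl was taken from the list by its group means. The study chose the list itself by a test that also uses the spread within groups of these livers. The p-values below are therefore not independent of that choice. Each group's mean was removed from log2 CPM, and Alpl values were permuted within groups (two-sided permutation test with 100000 resamples, adjusted over the 17 genes). In ND and HFD-T070 5% the SD of Alpl CPM was 1.05 and 1.12 times that of counting alone, so Alpl deviations there are largely counting error. Over the 24 libraries, Pearson's r with Alpl passed at 10 of the 17 genes and Spearman's rho passed at 6. The same relation was not computed for the other genes tested, so these counts have no background share and are not read as particular to the list. The highest r was that of Acss1, at 0.74 (p = 6.60e-04, adjusted p = 0.00898; rho = 0.57, p = 0.00665, adjusted p = 0.0188). Mboat2 followed at 0.71 (p = 0.00111, adjusted p = 0.00898) with a rho of 0.68 (p = 7.30e-04, adjusted p = 0.00414). Asns, which makes asparagine, had an r of 0.70 (p = 0.00159, adjusted p = 0.00898) and a rho of 0.67 (p = 5.80e-04, adjusted p = 0.00414). The lowest r was that of Lipg, the endothelial lipase, at −0.62 (p = 0.00769, adjusted p = 0.0163) with a rho of −0.43 (p = 0.0460, adjusted p = 0.0869).

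These relations rested on the library labelled HFD replicate 1. Without it, no gene passed by r or by rho over 23 libraries, and at an unadjusted p under 0.05 there were 5 by r and 3 by rho. The r of Acss1 was then 0.57 (permutation p = 0.00591, adjusted p = 0.10), that of Mboat2 0.52 (p = 0.0185, adjusted p = 0.157), that of Asns 0.47 (p = 0.0344, adjusted p = 0.163) and that of Lipg −0.35 (p = 0.122, adjusted p = 0.231). At 5 of the 17 genes r changed sign, namely Acly, Hk2, Elovl7, Pla2g7 and ENSMAUG00000000598. The value for the hexokinase Hk2, for instance, went from 0.42 to −0.21. Leaving out the 2 libraries farthest from the median of Alpl, HFD replicate 1 and HFD-T070 5% replicate 7, gave r = 0.57 for Acss1, 0.50 for Mboat2, 0.47 for Asns and −0.20 for Lipg. Over the 17 genes, the median r was 0.56 with all libraries and 0.20 without HFD replicate 1.

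**Figure D4:**
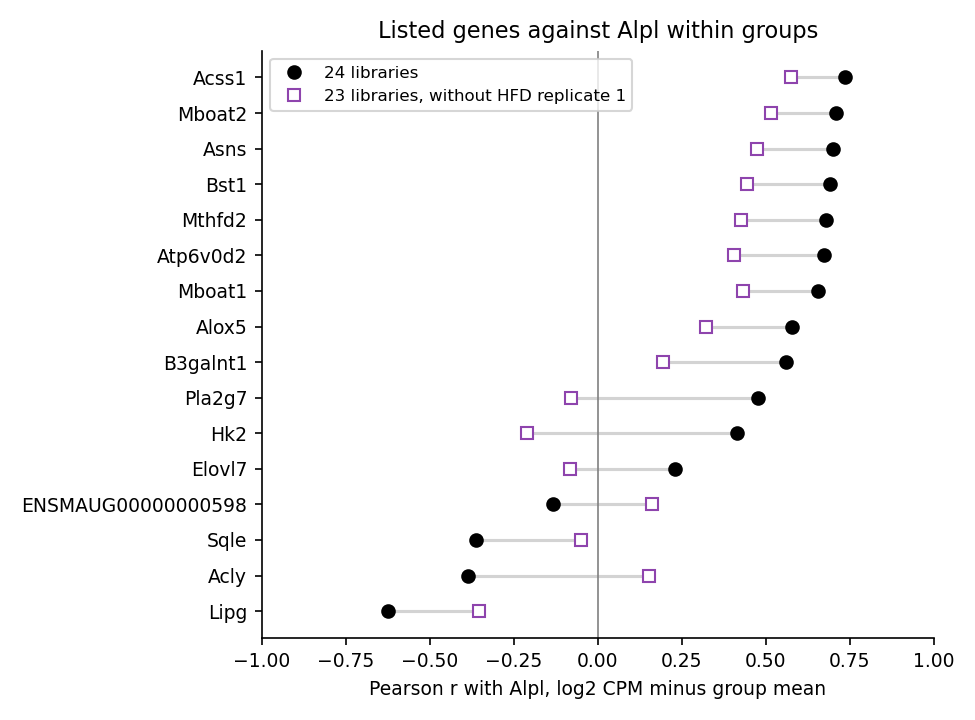
Pearson's r between Alpl and each of the other listed genes named here after removal of group means, with filled circles for 24 libraries and open squares for the 23 libraries other than HFD replicate 1. Every gene with r above 0.5 over 24 libraries has a smaller r without that library, and Acly, Hk2, Elovl7, Pla2g7 and ENSMAUG00000000598 change sign.

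**Figure D5:**
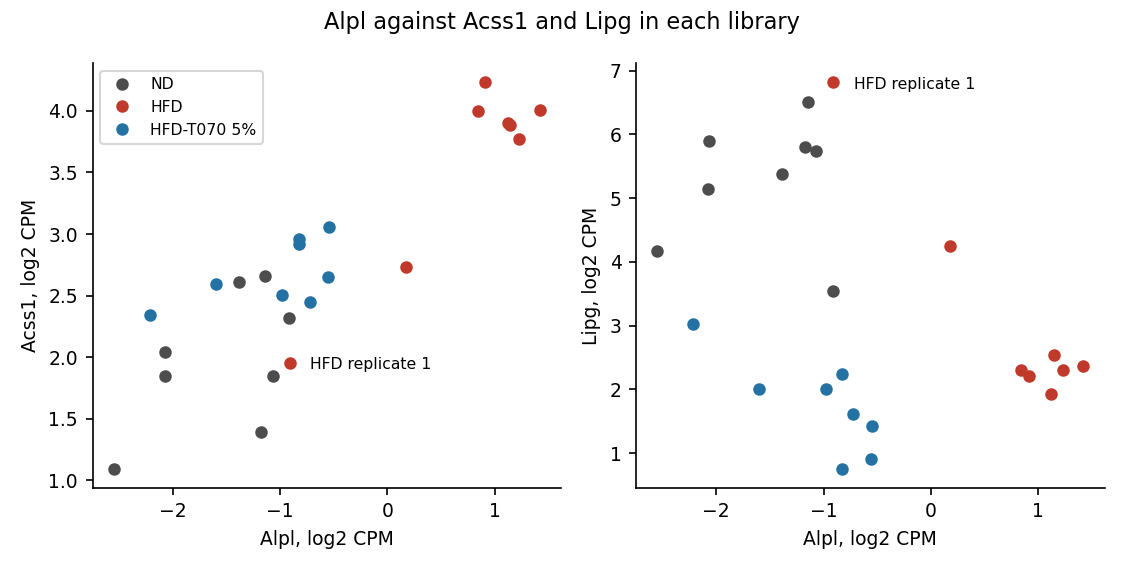
Log2 CPM of Alpl (horizontal axes) against Acss1 (left) and Lipg (right) in each library, coloured by group. HFD replicate 1 lies among the ND libraries for Acss1 and above all other libraries for Lipg.

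Across the whole table, the profiles most like that of Alpl were sought by Pearson's r of log2 CPM over the 24 libraries among the 12194 other genes with a mean of at least 1 CPM. This likeness was chosen as the highest of many and includes the differences between groups, so it is given with no test. ENSMAUG00000021662 was most like Alpl, with r = 0.94 over all libraries and 0.96 without HFD replicate 1. Its means were 8.23 ± 0.877 CPM in ND, 14.8 ± 3.56 CPM in HFD and 9.48 ± 1.47 CPM in HFD-T070 5% (SD, n = 8 each). ENSMAUG00000001402 followed with r = 0.93, from 3.81 ± 0.974 CPM in ND to 11.8 ± 3.85 CPM in HFD and 5.46 ± 1.44 CPM in HFD-T070 5% (SD, n = 8 each). Both had the group order seen for Alpl, at higher counts, and a choice by the highest r favours that order. They were also the first 2 genes without HFD replicate 1. The profiles most opposed to Alpl were those of ENSMAUG00000000877 and ENSMAUG00000020136, with r = −0.92 and −0.91, which fell from 131.2 to 70.3 CPM and from 432.3 to 272.4 CPM between the ND and HFD means and stood at 105.2 and 354.0 CPM in HFD-T070 5%. Among the listed genes, Acss1 ranked 14th with r = 0.88, Asns 40th with 0.87 and Mthfd2 59th with 0.86.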

How the data were processed

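Liver RNA of the 24 hamsters was depleted of ribosomal RNA, made into directional libraries and sequenced as single-end reads of 75 cycles. Per the labels and methods, the authors used Trimmomatic 0.36 for trimming and STAR 2.7.10 for alignment to MesAur1 and for gene counts. The values they deposited are raw counts. The annotation release and strand setting are not given in the sources used here, so reads of overlapping genes could be shared. Columns were matched to libraries by the label descriptions.

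Counts were analysed in R 4.3.3 with edgeR 4.0.16 (filterByExpr with a minimum count of 10, TMM, glmQLFit, glmQLFTest, 3 groups in 1 fit, Benjamini–Hochberg adjustment over 13134 genes). The size of each log2 fold change over the root of its F statistic gave the standard error. Log2 CPM used a prior count of 2. Libraries of one group differed by more than sampling noise (chi-square per degree of freedom at least 8.15 in every pair). The fit was tested on simulated data. Alternatives used DESeq2 1.42.0 and voom of limma 3.58.1. By the methods, hamsters shared cages. Nothing in the sources names litters or cages for single libraries, so shared cages could not be modelled. The p-values rest on the variation between these hamsters, counting error included, and treat them as independent. Alpl and the lists were chosen with earlier results of these data known.

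Named genes were, from the study's list, the 3 with HFD-T070 5% closest to ND by log2 fold change and the 3 highest and 1 lowest by r within groups, and, from all genes, the 2 most and 2 least like Alpl with the leading listed genes. Other listed genes are named because they make up a short count or were chosen after their values were seen. A listed gene is not reported here by name. The RefSeq gene table used for names matched 0 of 22283 identifiers. No genome or sequence of Alpl was used here.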

Additional observations from a re-analysis of the deposited data

Results flagged for a closer look

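Library totals, Alpl CPM and Alpl log2 CPM were examined in each group, 9 groups of 8 values in all, for a lowest or highest value whose gap to its neighbour was unusually large beside the range of its group. Chance singles out a value in about 1 of 20 groups. The total of HFD replicate 7, 10789142 counts, was singled out. This library held 21 reads of Alpl, or 2.10 CPM with an exact 95% Poisson interval of 1.30 to 3.21, within the range of the other HFD libraries. No Alpl value was singled out, HFD replicate 1 included, whose gap on the log2 scale was 0.465 of the HFD range.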

How the results depend on the processing

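The log2 fold changes of Alpl and its position between ND and HFD kept their sign under every alternative run and moved by less than the spread between replicates (0.65 on the log2 scale for the fold changes). That bound is loose for HFD-T070 5% compared with ND (0.68) and for the position (0.22, with a spread of 0.25), since it is about as large as the value. With 1 library left out, these 2 results ran from 0.54 to 0.85 and from 0.17 to 0.30. Library totals in place of TMM moved the median log2 fold change of all genes by 0.32 in HFD compared with ND, and gave Alpl 3.12 there and 0.90 in HFD-T070 5% compared with ND. In a fit of the ND group with only 1 of the others, Alpl did not pass the filter and has no value, nor does it with at least 10 counts in every library. That filter left 9 of the 17 other listed genes, of which 5 passed in HFD compared with ND and 7 in HFD-T070 5% compared with ND, against 13 and 14. With 1 library left out these counts ranged from 13 to 15 in both. In HFD compared with ND the count was 15 without HFD replicate 1 and 13 in each other such fit. The closeness of HFD-T070 5% to ND put Alpl at place 1 by position, 5 by log2 fold change and 2 by CPM difference. The number of genes whose r with Alpl passed was 10 over all libraries and 0 without HFD replicate 1. Of the 20 genes most like Alpl, 3 were shared when Spearman's rho replaced r. The deviations of same-numbered libraries from their group means had r from −0.242 to 0.495, with every pair above 0.1 for replicate numbers 2 and 5 and not for the other numbers, so the numbers were not taken to pair hamsters. A block for the replicate number gave Alpl 2.73, −2.04 and 0.69 in HFD compared with ND, HFD-T070 5% compared with HFD and HFD-T070 5% compared with ND, and 15 and 14 listed genes passed in the comparisons with ND. Depth limits Alpl most in ND, where 1 to 7 reads per library were counted.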
